A study of Mus musculus with 32 samples.

Results

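RNA levels of 10 genes of the contractile actin cytoskeleton were compared between WT mouse embryonic stem cells (mESCs) and the library labelled Eed-/-. The genes were picked by symbol and encode smooth-muscle actins (Acta2, Actg2), transgelins (Tagln, Tagln2), calponins (Cnn1, Cnn2, Cnn3), tropomyosins (Tpm1, Tpm2) and the coactosin-like protein Cotl1. All 10 symbols were found among the 24028 gene symbols of the 2 RNA-seq libraries. The set was chosen with the levels of these libraries already known, so its differences are given as a description and carry no test. The study asked how Polycomb keeps DNA methylation valleys (DMVs, long stretches of hypomethylated DNA around developmental genes) free of methylation, and EED is a core subunit of the Polycomb complex PRC2.

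Both RNA-seq libraries came from mESCs with serum and LIF on gelatinized plates, 1 library per genotype, WT and Eed -/-, from total RNA depleted of ribosomal RNA. The line given in the labels is TT2 for both libraries, but another line is named for the Eed -/- samples of the other assays, and the mutation in the Eed -/- cells is not given in the sources used here. The deposited unit is FPKM, a fragment count scaled to transcript length and library depth. Spacing of the low values gave an estimated depth of 7240000 fragments (WT) and 6460000 (library labelled Eed-/-). The Eed transcript itself had an FPKM of 63.0 in the WT library against 70.9 in the one labelled Eed-/-, so the RNA level does not check the label. The study checked the loss of EED through H3K27me3, by western blot and ChIP-seq, which were not analysed here, and directions are given for the library labelled Eed-/-. With 1 library per genotype, the spread between cultures is unknown and genotype, line and culture cannot be told apart.

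Actin filaments in smooth-muscle cells carry smooth-muscle actin isoforms, are stabilised along their length by tropomyosin, and are bound by calponins and transgelins, which share the calponin-homology domain. Many of these genes are classical targets of serum response factor (SRF), which binds a sequence called the CArG box together with cofactors of the myocardin family. Acta2, Actg2, Tagln and Cnn1 mark differentiated smooth muscle, whereas Tagln2, Cnn2, Cnn3, Tpm1 and Cotl1 are also made by many non-muscle cells.

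Since many of these genes are known SRF targets, the bases before the annotated start sites were read for CArG boxes, as a description of sequence only. A RefSeq promoter window (GRCm38.p6) was matched for 7 of the 10 genes, namely Acta2, Tagln2, Cnn1, Cnn2, Cnn3, Tpm1 and Tpm2. A CArG box of 10 letters was taken as CC, then 6 bases that are each A or T, then GG, a pattern that reads the same on both strands. Windows of 250 bases ending at the base before the start are shown for some of these genes. Those of Cnn2 (chr10:79988350-79988599, plus strand), Acta2 (chr19:34255374-34255623, minus strand) and Tpm1 (chr9:67049214-67049463, minus strand) held matches. That of Cnn3 (chr3:121426291-121426540, plus strand) held none. Capitals mark matches with at most 1 differing letter.
Cnn2: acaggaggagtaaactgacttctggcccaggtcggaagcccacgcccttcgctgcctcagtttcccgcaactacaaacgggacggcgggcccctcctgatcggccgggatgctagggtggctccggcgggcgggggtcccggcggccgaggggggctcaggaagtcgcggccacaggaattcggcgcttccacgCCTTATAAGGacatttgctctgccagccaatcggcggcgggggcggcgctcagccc
Acta2: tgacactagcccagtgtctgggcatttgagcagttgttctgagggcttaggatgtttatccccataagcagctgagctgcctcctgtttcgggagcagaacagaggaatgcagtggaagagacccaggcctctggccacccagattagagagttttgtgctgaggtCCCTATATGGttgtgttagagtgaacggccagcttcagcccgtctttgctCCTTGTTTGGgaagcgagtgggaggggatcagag
Tpm1: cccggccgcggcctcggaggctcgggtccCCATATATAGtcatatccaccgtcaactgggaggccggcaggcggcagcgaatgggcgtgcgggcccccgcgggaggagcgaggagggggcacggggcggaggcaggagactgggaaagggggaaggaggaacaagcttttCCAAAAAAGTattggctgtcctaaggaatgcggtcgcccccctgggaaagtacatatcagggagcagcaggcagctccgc
Cnn3: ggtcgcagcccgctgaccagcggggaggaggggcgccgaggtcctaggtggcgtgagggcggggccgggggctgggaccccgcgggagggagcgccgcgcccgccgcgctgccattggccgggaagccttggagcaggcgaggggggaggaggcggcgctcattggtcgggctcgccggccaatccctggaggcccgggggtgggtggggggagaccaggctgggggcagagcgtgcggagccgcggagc
The Cnn2 window held the exact box CCTTATAAGG, beginning 56 bases before the start, and exact boxes were found in 1.47% of all 32851 promoter windows of this length. Acta2 held CCCTATATGG at 84 bases and CCTTGTTTGG at 34 bases before the start, each with 1 letter outside the pattern. Tpm1 held CCATATATAG at 221 bases and CCAAAAAAGT at 80 bases, also with 1 letter outside it. Matches with at most 1 differing letter were found in 18.6% of all windows, so the looser pattern is common. No match of either kind lay in the windows of Tagln2, Cnn1, Cnn3 and Tpm2. Of these, Tagln2, Cnn1 and Tpm2 were lower in the library labelled Eed-/-, so the windows shown do not stand for all lower members. A match describes these letters only and does not show binding by SRF, and the absence of one speaks only of this window.

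In the deposited values, 8 of the 10 genes were lower in the library labelled Eed-/-, Cnn3 was slightly higher, and Actg2 was listed at 0 in both. Lower values were common among all genes too. With the FPKM as deposited, the median difference of all genes that met the filter given below was -0.09. After the normalization given below, 48.96% of all such genes were below 0. The order of the levels, which FPKM allows since it is scaled to length, also differed. In WT, Tpm1, Cnn3 and Cotl1 stood highest, followed by Tagln2 and Cnn2, then Tpm2, Tagln, Cnn1 and Acta2. In the library labelled Eed-/-, Cnn3 stood alone at the top, and Cotl1 came after Tpm1 and Tagln2. Exact Poisson intervals at 95% were taken, which cover counting error only. In WT they overlapped between Tpm1 and Cnn3, Cnn3 and Cotl1, Tagln2 and Cnn2, Tpm2 and Tagln, and Cnn1 and Acta2. Overlap of separate intervals does not show that levels are equal, and the order within those pairs was not tested. In the library labelled Eed-/-, the neighbours from Cnn3 down to Tpm2 had separate intervals, except Tpm1 with Tagln2, and those of Cnn1, Tagln and Acta2 overlapped.

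**Figure D1:**
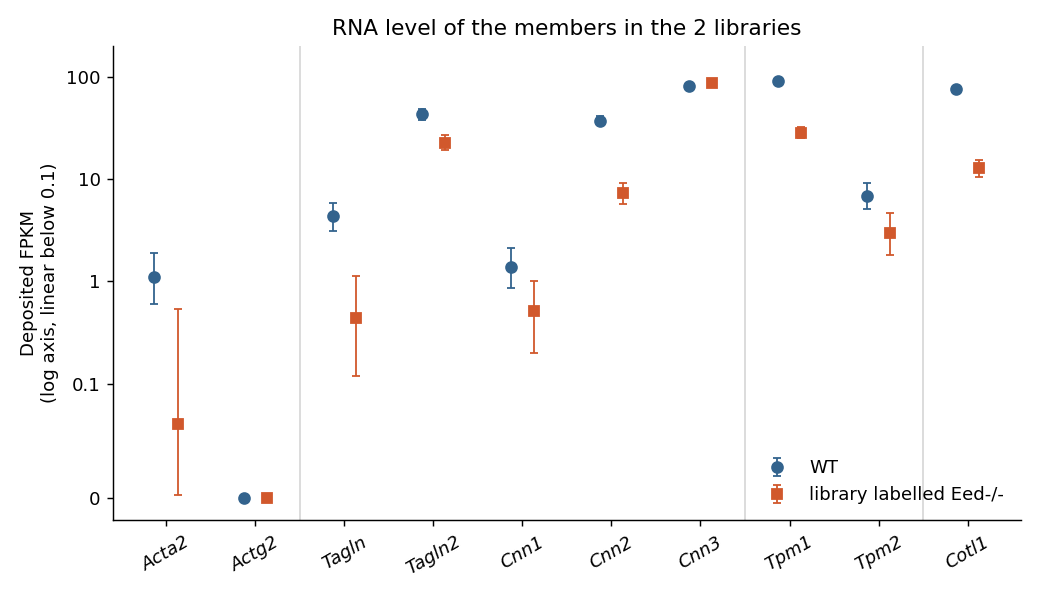
Deposited FPKM (log axis, linear below 0.1) of each member in WT (circles) and in the library labelled Eed-/- (squares), 1 library each, with bars for the exact 95% Poisson counting interval. The bars of Tpm1, Cotl1, Cnn2, Tagln, Tagln2, Tpm2 and Acta2 do not overlap between the libraries, and those of Cnn1 and Cnn3 do. Cnn3 lies at 81.4 and 86.6, and Actg2 is at 0 in both and carries no bar.

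For differences, the libraries were quantile-normalized and the difference in log2(FPKM + 1) was taken, library labelled Eed-/- minus WT, a scale that understates the change of low genes. A mean normalized FPKM of at least 0.1 was required, which 9 of the 10 genes met and Actg2 did not. A difference of 1, that is 2-fold on this scale, served as a fixed bound. At least 2-fold lower were 4 of these 9 genes, Cotl1, Cnn2, Tagln and Tpm1, and 0 were at least 2-fold higher. Among all 14835 genes that met the filter, 3.98% were at least 2-fold lower and 3.8% at least 2-fold higher. At a 3-fold bound 3 of the 9 were lower and 0 higher (0.923% and 1.02% of all genes), and at 1.5-fold 8 were lower and 0 higher (12.4% and 12.3%). The median difference of the 9 genes was -0.97, and that of all genes was 0.01. Since the genes were chosen from this same contrast, nothing is read from these counts about the set.

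**Figure D2:**
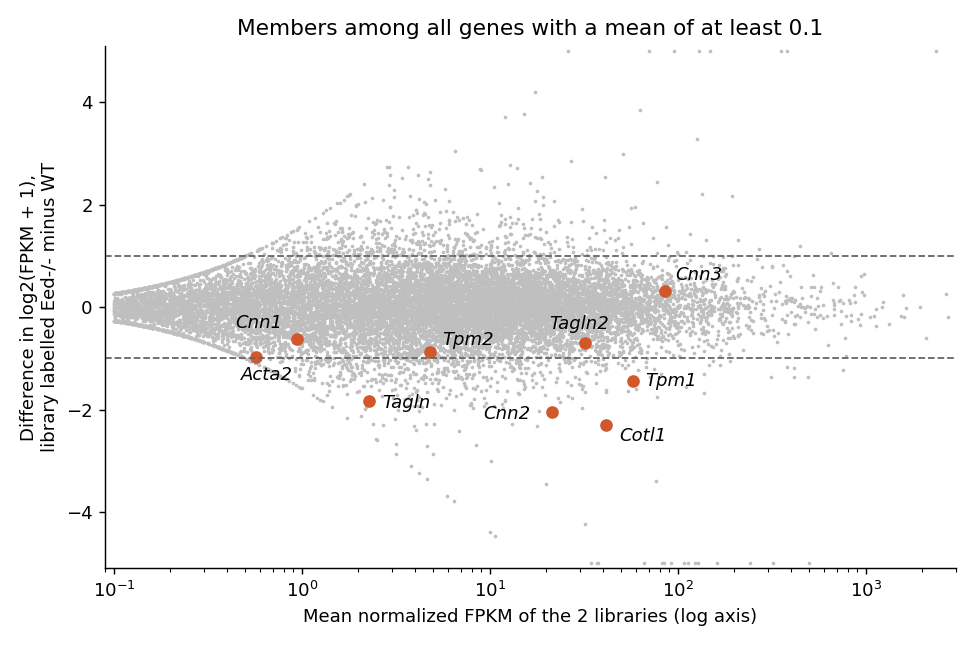
Difference in log2(FPKM + 1), library labelled Eed-/- minus WT, against the mean normalized FPKM (log axis) for genes with a mean of at least 0.1 (grey) and the 9 members that passed (orange), with dashed lines at 2-fold. The 44 genes with a mean above 3000 are not drawn, other differences beyond 5 are drawn at the edge, and Cotl1, Cnn2, Tagln and Tpm1 lie below the lower dashed line.

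Cotl1, a small protein of the ADF/cofilin family that binds actin filaments, had the largest difference of the set. Its deposited FPKM was 75.2 in the WT library against 12.7 in the one labelled Eed-/-. The normalized level was 5.20 times as high in WT (95% exact binomial interval 4.25 to 6.36, counting error only), and the log2(FPKM + 1) difference was -2.29, the 47th lowest of the 14835 genes. In mm9 Cotl1 spans 122333125 to 122364479 of chromosome 8 on the minus strand. The median difference of the 702 genes of that chromosome was -0.38. Relative to that median, the difference of Cotl1 was -1.91.

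Cnn2, a calponin also made by many non-muscle cells, had an FPKM of 37.3 in the WT library against 7.25 in the one labelled Eed-/-. The normalized level was 4.54 times as high in WT (interval 3.52 to 5.92), a log2(FPKM + 1) difference of -2.05. The gene lies on the plus strand of chromosome 10 from 79451329 to 79458807, and the chromosome's genes had a median difference of 0.02. Its promoter window held the exact CArG box printed above, and whether SRF uses that box in these cells was not tested.

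Cnn3, acidic calponin, is the close relative that did not share this pattern. Its FPKM was 81.4 in the WT library against 86.6 in the one labelled Eed-/-, a log2(FPKM + 1) difference of 0.32 with a counting interval of 0.20 to 0.45. With the FPKM as deposited the difference was 0.09, while the median of all genes was -0.09 under that scaling. Cnn3 lies on the plus strand of chromosome 3 from 121129459 to 121161123. Cnn1, the smooth-muscle calponin (chromosome 9, 21903725 to 21914074), stood far lower than both, at an FPKM of 1.38 in the WT library against 0.514 in the one labelled Eed-/-, about 21.8 and 7.27 fragments. Its log2(FPKM + 1) difference was -0.63, with an interval of -1.12 to -0.08. The calponins thus differed in level, and Cnn3 was not lower as Cnn1 and Cnn2 were.

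Tagln, also called SM22, is an early marker of smooth-muscle differentiation. Its FPKM was 4.32 in the WT library against 0.440 in the one labelled Eed-/-, which stand for 43.9 and 4.00 fragments. The normalized level was 9.24 times as high in WT (interval 3.37 to 35.4), and the log2(FPKM + 1) difference was -1.83. Tagln lies on the minus strand of chromosome 9 from 45737711 to 45744141, and its 3′ end overlaps that of Pcsk7 on the plus strand. The libraries were strand-specific, but whether the counting used strand is not given in the sources used here. Pcsk7, a proprotein convertase gene looked at because of this overlap, had FPKM values of 3.96 and 2.54 and a difference of -0.41. Tagln2, the broadly expressed relative, was higher than Tagln in both libraries, at an FPKM of 42.9 in the WT library against 22.7 in the one labelled Eed-/-. Its log2(FPKM + 1) difference was -0.71 (interval -0.99 to -0.42). It lies on chromosome 1 from 174430178 to 174437511, whose 752 genes had a median of -0.29, and relative to that median its difference was -0.42.

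Tpm1 was the highest of the set in WT, at an FPKM of 91.4, and stood at 28.5 in the library labelled Eed-/-. Its normalized level was 2.77 times as high in WT (interval 2.42 to 3.18), a log2(FPKM + 1) difference of -1.44. Tpm1 lies on the minus strand of chromosome 9 from 66870397 to 66897213 and has 21 annotated transcripts, muscle and non-muscle isoforms among them, which the value per symbol does not separate. Tpm2 (chromosome 4, 43527583 to 43536637) encodes another tropomyosin and had FPKM values of 6.88 in the WT library against 2.95 in the one labelled Eed-/-. Its log2(FPKM + 1) difference of -0.89 was just short of the bound, with an interval of -1.51 to -0.23 that spans it.

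Acta2, the smooth-muscle alpha-actin gene, was deposited with FPKM values of 1.10 in the WT library against 0.0648 in the one labelled Eed-/-. On its single annotated transcript of 1781 bases these values come to about 12.7 and 0.670 fragments. The second is not a whole number, so these fragment numbers are approximate. The normalized level was 18.2 times as high in WT, with a counting interval of 1.87 to 528 that shows how little this ratio is fixed. The log2(FPKM + 1) difference was -0.97 (interval -1.09 to -0.32), just short of the 2-fold bound. Acta2 lies on the minus strand of chromosome 19 from 34315580 to 34329826. Actg2, the enteric smooth-muscle gamma-actin (chromosome 6, 83462899 to 83486259), was listed at 0 in both libraries, and such a value can be a failed estimate. No near-identical genomic copy was found for any of the 10 genes. The coding sequences of Acta2 and Actg2 share 76.9 to 85.4% of their bases with each other and with the other 5 actin genes.

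**Figure D3:**
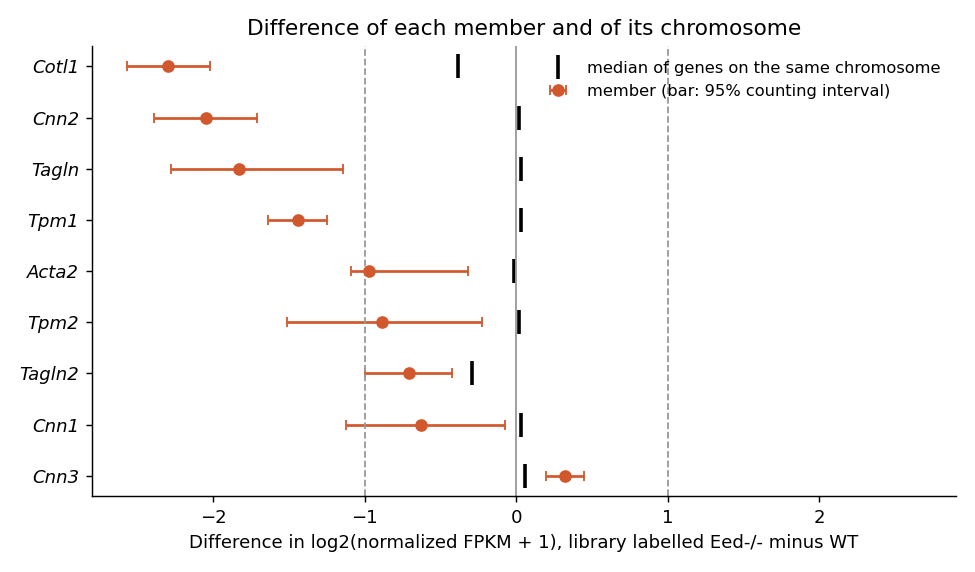
Difference in log2(normalized FPKM + 1) of each of the 9 members (points, with 95% counting intervals) and the median difference of the genes on its chromosome (black ticks), with dashed lines at 2-fold. The intervals of Cotl1, Cnn2, Tagln and Tpm1 lie wholly below -1, and the chromosome medians of Cotl1 and Tagln2 lie at -0.38 and -0.29 while the others lie near 0.

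The differences were also set beside those of the nearest non-overlapping genes on each side whose mean reached 2 FPKM, at 1799 to 204003 bases. Pcsk7, which overlaps Tagln, was given above. Around Cotl1, Taf1c was at -0.52 and Usp10 at -0.87 on the log2(FPKM + 1) scale. Around Cnn2, Wdr18 was at -0.19 and Polr2e at 0.28. Around Tagln, Rnf214 was at -0.15 and Sidt2 at -0.31, and around Tpm1, Lactb was at 0.71 and Tln2 at -0.64. None of these 8 neighbours differed by 2-fold with quantile normalization, whereas Usp10 was at -1.08 with the FPKM as deposited. The 4 loci were taken because their members passed the bound, so nothing is read from the members exceeding their neighbours.

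Among the other genes of these families, differences went both ways, and Tagln3 alone passed the 2-fold bound with quantile normalization. The cytoskeletal actin Actb, the most abundant actin, had an FPKM of 1616 in the WT library against 1092 in the one labelled Eed-/-, a log2(FPKM + 1) difference of -0.33. Actg1, the other cytoskeletal actin, stood at 72.8 and 77.4, a difference of 0.31, and is uncertain because 4 near-identical copies lie in the genome. Acta1, the skeletal-muscle actin, was at 0.530 in WT and listed at 0 in the other library, and Actc1 and Actbl2 were listed at 0 in both. The non-muscle tropomyosins Tpm3 (78.9 and 38.2) and Tpm4 (26.4 and 14.7) had differences of -0.82 and -0.66, and each has 1 near-identical copy. With the FPKM as deposited Tpm3 was at -1.03, past the bound, and Tpm4 lies on chromosome 8 and was at -0.27 relative to that chromosome's median. Tagln3, the neuronal transgelin, went the other way, with an FPKM of 4.06 in the WT library against 9.91 in the one labelled Eed-/-, a difference of 1.22. The transgelins Tagln, Tagln2 and Tagln3 thus differed in direction.

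Of 9 further ADF/cofilin-family genes, relatives of Cotl1, 1 was at least 2-fold lower and 0 were higher. Dbn1, which encodes drebrin, had FPKM values of 6.75 in the WT library against 2.39 in the one labelled Eed-/-, a log2(FPKM + 1) difference of -1.09. Dbnl and Cfl2 were at 0.85 and 0.83. The median of these genes was 0.11, and -0.03 with the FPKM as deposited.

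Genes of the smooth-muscle contractile apparatus were read beside the set. Of 12 such genes, 10 met the filter, 2 were at least 2-fold lower, 0 were at least 2-fold higher, and the median difference was 0.08. Myh11, Lmod1, Synpo2 and Itga8 met it at means of only 0.12 to 0.20 FPKM. At such means this scale holds differences near 0 and cannot reach the bound. The counts and the median therefore do not tell whether the set was part of a wider smooth-muscle pattern. Myl9, the regulatory light chain of smooth-muscle myosin, had an FPKM of 12.5 in WT and was listed at 0 in the library labelled Eed-/-, which can be a failed estimate. Des, which encodes the muscle intermediate filament desmin, stood at 11.2 and 2.42, a log2(FPKM + 1) difference of -1.74, and was at -1.45 relative to the median of its chromosome 1. Ppp1r14a, an inhibitor of myosin phosphatase, was at 5.02 and 8.78, a difference of 0.82. Other genes of the list were expressed in both libraries, with Smtn, which encodes smoothelin, at 7.31 and 6.13 and Cald1, the caldesmon gene, at 2.94 and 2.97, differences of -0.08 and 0.09. Some defining genes of mature smooth muscle were near or at 0 in both libraries, with Myh11, the smooth-muscle myosin heavy chain, at an FPKM of 0.0864 and 0.145 and Kcnmb1 and the coactivator Myocd listed at 0.

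SRF and its cofactors were given next, since they act on many of these genes. Of 8 genes, 7 met the filter and 0 passed the 2-fold bound in either direction. Their median was -0.17, and 6 of the 7 were below 0, against 48.96% of all genes. Srf stood at an FPKM of 13.7 in the WT library against 7.68 in the one labelled Eed-/-, a log2(FPKM + 1) difference of -0.62 with a counting interval of -0.85 to -0.39. The myocardin-related coactivators Mkl1 (2.27 and 1.78) and Mkl2 (2.78 and 2.53) had differences of -0.17 and -0.03, the latter 0.02 with median-ratio scaling. Among the ternary complex factors, Elk3 was at -0.73, Elk4 at -0.14 and Elk1 at 0.06, and the signs of Elk1 and Elk4 depended on the scaling. Fhl2, an LIM-only cofactor, was at an FPKM of 0.697 in WT and listed at 0 in the other library, a difference of -0.75, or -0.46 relative to its chromosome. Of 14 further cytoskeletal targets of SRF and its cofactors, such as vinculin and filamin genes, 0 passed the bound in either direction. The median was 0.01, and -0.12 with the FPKM as deposited. The largest differences there were -0.53 for Flna, the X-linked filamin A gene, 0.43 for Tgfb1i1 and 0.39 for Filip1l. Relative to the median of the X chromosome, Flna was at -0.99.

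Genes of actin assembly, the Arp2/3 complex, formins, profilins and capping proteins, gave a background of the general actin machinery. All 13 met the filter, 0 passed the bound in either direction, and the median was 0.24. Pfn2 was at 0.92, Arpc2 at -0.87 and Actr3 at -0.59, and the last pair lie on chromosome 1. Relative to that chromosome's median Arpc2 was at -0.58 and Actr3 at -0.30, and with the FPKM as deposited they were at -1.11 and -0.78.

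**Figure D4:**
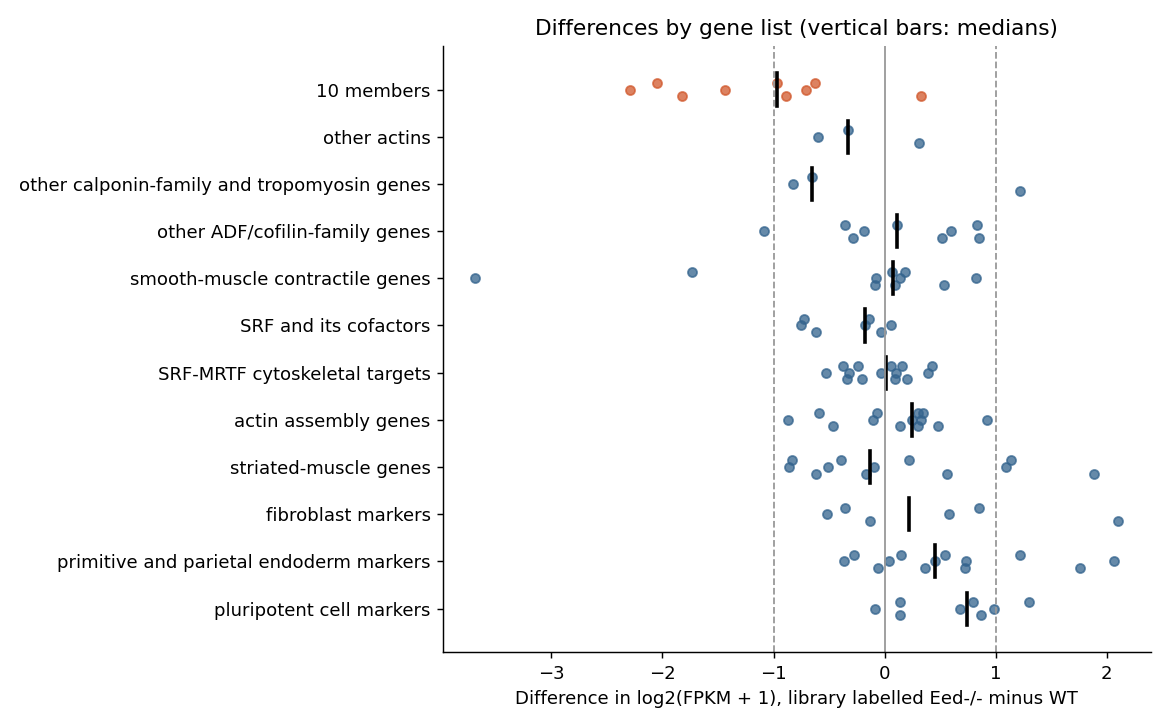
Difference in log2(FPKM + 1), library labelled Eed-/- minus WT, for genes whose mean reached 0.1 FPKM in the 10 members (orange) and in 11 other lists (blue), with black bars at the list medians and dashed lines at 2-fold. The members lie mostly below 0 with a median of -0.97, while the SRF-MRTF cytoskeletal targets lie around 0.01 and the pluripotent cell markers at 0.74.

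Markers of other cell types were read in the same way. Of 13 fibroblast markers, 6 met the filter, 1 was at least 2-fold higher and 0 lower, and their summed FPKM was 59.3 in the WT library against 44.6 in the one labelled Eed-/-, most of it Fn1, which encodes fibronectin. Dcn and Twist2 were listed at 0 in both libraries, and Col1a1 stood at 0.460 and 0.137. Of 13 primitive and parietal endoderm markers, 3 were at least 2-fold higher, Lama1 (2.06), Col4a1 (1.76) and Col4a2 (1.22), and 0 lower. By sign, 10 of the 13 were above 0, as were 7558 of all 14835 genes. Plat (-0.37), Srgn (-0.27) and Lamb1 (-0.06) were below 0. The signs of Plat and Sparc depended on the scaling, with Sparc at 0.14 but at -0.08 with the FPKM as deposited. The summed FPKM of the 13 was 121 and 158, with Sox17 listed at 0 in WT. The largest gains in FPKM were those of Lama1 (8.25 and 33.5) and Col4a1 (5.62 and 19.1). All 8 pluripotent cell markers were expressed in both libraries, with summed FPKM of 1207 and 1507. Zfp42 alone passed the bound (1.30), followed by Klf4 (0.99) and Nanog (0.86). The list did not move as one, since Sox2 was at -0.08. Pou5f1 (0.14) and Esrrb (0.13) were above 0, but at -0.07 and -0.09 with the FPKM as deposited. The part of these cell types in the levels of the 10 genes was not tested. In bulk RNA, fewer cells expressing a gene and less RNA per cell cannot be told apart.

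For the setting of the study, Tagln2, Cnn2, Cnn3 and Tpm1 are among the genes that it lists in mESC DMVs, and the other members are not. The listed genes include both Cnn2, at -2.05, and Cnn3, at 0.32. The share of all genes so listed was not computed, so nothing is read from this listing about the set. Whether EED binds at these DMVs was not analysed here.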

How the data were processed

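RNA-seq of WT and Eed -/- mESCs was used, with 1 library per genotype; the ChIP-seq, Met-seq (DNA methylation) and 4C-seq samples were not analysed here. The authors aligned reads to mm9, and per gene symbol they deposited FPKM from Cufflinks. The processing notes name TopHat2 2.0.11 and Cufflinks 2.2.1, the paper's text names another TopHat version, and the annotation is not given in the sources used here. Values of 268 repeated symbols were added together. After quantile normalization, log2(FPKM + 1) was compared for genes with a mean of at least 0.1. The members and lists were chosen with earlier results of these data known, and with 1 library per genotype no test was made. All 10 members and Eed, all genes of the lists of actins, transgelin and tropomyosin relatives and SRF cofactors, the 3 largest differences of each other list, and the nearest neighbours of members past 2-fold were named. Pcsk7, and other genes quoted from the lists (Myh11, Lmod1, Synpo2, Itga8, Kcnmb1, Smtn, Cald1, Fn1, Col1a1, Dcn, Twist2, Sox17, Plat, Srgn, Lamb1, Sparc, Pou5f1, Sox2, Esrrb, Myod1, Myf5, Tnnt2, Myl2), were added after their values were seen.

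Depth was recovered from genes with 1 transcript of at least 1000 bases, less 180 bases, in GENCODE vM1 on NCBIM37 (mm9). Among low values, 78.8% of 841 (WT) and 79.6% of 948 (library labelled Eed-/-) came within 0.1 of whole numbers, against 20% by chance. Fragment numbers of genes with several transcripts use their median coding-transcript length and are approximate. Intervals at 95% (Clopper-Pearson or Poisson) cover counting error only. Copies were sought with minimap2 2.31 at 80% coverage and 95% identity. Promoters came from RefSeq on GRCm38.p6. Alternatives were other scalings, pseudocounts, filters and thresholds. The computations were tested on simulated data. Scripts ran under Python 3.11.15 with scipy 1.17.1, pandas 2.3.3, biopython 1.88, numpy 2.4.6 and matplotlib 3.10.9.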

Additional observations from a re-analysis of the deposited data

How the results depend on the processing

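All 8 lower members stayed below 0 and Cnn3 above 0 under each scaling, pseudocount and filter at which they were kept; a mean FPKM of at least 1 kept 7 members, 6 of them below 0. The number of members at least 2-fold lower was 4 except with pseudocounts of 0.1 and 0.01 and with other thresholds. Those pseudocounts gave 7 members each, but lower calls among all 14835 genes also rose, from 590 to 1778 and 1989. A threshold of 3-fold gave 3 members, and one of 1.5-fold gave 8, against 12.4% of all genes. In the other lists, 9 genes were higher and 3 lower; a pseudocount of 0.1 gave 20 and 10, one of 0.01 gave 22 and 10, and the FPKM as deposited gave 5 lower. Over all genes, 564 were higher and 590 lower, against 1694 and 1778 with a pseudocount of 0.1, 1914 and 1989 with 0.01, 152 and 137 at 3-fold, and 1819 and 1841 at 1.5-fold. The FPKM as deposited gave 455 higher and 801 lower, so that 63.8% of the calls were lower in place of 51.1%. The pseudocount moved the low genes most, Acta2 to -2.89 with 0.1 and -3.97 with 0.01. The median of the members ran from -0.93 to -1.47. No replicate could be left out, and no paired analysis was possible because each genotype had 1 RNA-seq library. The depth limits what Acta2, Cnn1 and Tagln can show.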

Other observations

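Striated-muscle genes went both ways. Of 16 genes, 12 met the filter, 3 exceeded the 2-fold bound upwards in the library labelled Eed-/- and 0 downwards, while 7 of the 12 were below 0 and the median was -0.13. Myl4, an atrial and embryonic myosin light chain, had an FPKM of 1.17 in the WT library against 6.60 in the one labelled Eed-/-, a log2(FPKM + 1) difference of 1.89. Myl7, the atrial regulatory light chain, was at 1.33 and 3.76, a difference of 1.09 whose counting interval of -0.17 to 2.09 spans 0. Tnnc1, which encodes cardiac troponin C, was listed at 0 in WT and at 1.18 in the other library. The lineage factors Myod1 and Myf5 were listed at 0 in both libraries, as were Tnnt2 and Myl2.

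Of the 6 fibroblast markers that met the filter, 3 were below 0, among them Fn1 at -0.52 and Col1a1 at -0.36. Relative to the median of its chromosome 1, Fn1 was at -0.23. Thy1, a surface glycoprotein, had an FPKM of 0.976 in the WT library against 6.97 in the one labelled Eed-/-, a difference of 2.10, and Twist1 and S100a4 were at 0.85 and 0.58.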
